A study of Homo sapiens with 42 samples.

Results

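The comparison described here sets K562 cells kept in added KCl for 3 h against K562 cells kept in it for 1 h, at the level of mRNA. Its members are the 3 mRNA libraries of KCl at 3 h and the 3 mRNA libraries of KCl at 1 h, 6 of the 42 libraries of the series, chosen by their labels alone. K562 is an established human cell line from a chronic myeloid leukaemia that carries the BCR-ABL1 fusion and has an erythroid-like character. The study asked how imatinib, the 3′ end processing inhibitor JTE-607 and osmotic stress alter transcription and RNA processing, and KCl was its osmotic stress. Both KCl groups received 110 mM KCl on top of the growth medium and differed in time only. The untreated group, also 3 mRNA libraries, received no agent, and it is used here to place each level. The mRNA libraries were made from RNA bound to oligo-dT beads, as read pairs counted per gene. Nuclear RNA depleted of ribosomal RNA was available for KCl at 1 h and for untreated cells, 3 libraries each, and not for KCl at 3 h. The same cell line served throughout, so the replicates are cultures of 1 line.

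A sudden rise in the salt outside a cell draws water out of it. The cell shrinks, the stress kinases p38 and JNK are activated, ion transporters restore the volume, and the transcription factor NFAT5 later switches on genes that import or make compatible osmolytes. Immediate early genes, which encode transcription factors such as JUN and FOSB and are induced without new protein synthesis, belong to the earliest transcriptional responses to many stresses. Feedback genes such as DUSP1, which dephosphorylates those kinases, and ZFP36, which marks AU-rich mRNAs for decay, limit such responses.

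The libraries differed in depth. KCl 1 h replicates 2 and 3 held 62953314 and 42474454 counts. The other 25 of the 27 mRNA libraries held between 16439848 and 22505595, with 19270518 in KCl 1 h replicate 1 and 20242385 to 22505595 at 3 h. All levels below are CPM, the counts scaled to the size of the library with TMM factors, and changes as log2 fold changes of 3 h minus 1 h. Of 14 erythroid markers, all 14 were above 1 CPM in every untreated and KCl library, with a summed level of 4720 to 6640 CPM at 1 h and 4570 to 7630 CPM at 3 h, whereas the megakaryocyte, lymphocyte, monocyte and fibroblast marker lists each summed to at most 15.4 CPM. PF4, a platelet gene, and S100A8, a myeloid gene, were at 0 in every untreated and KCl mRNA library. KCl 1 h replicate 1 stood apart from replicates 2 and 3 in genes of the amino acid response driven by ATF4. ATF4 itself stood at 442, 195 and 194 CPM at 1 h and at 481, 373 and 380.2 CPM at 3 h. Untreated replicate 2 stood apart in the same direction, with ATF4 at 149, 420.3 and 157 CPM in the 3 untreated libraries. The study's supplementary text, by the library totals it lists, gives untreated replicates 1 and 2 the opposite numbers, so the numbers of these 2 libraries are uncertain, and the labels were used here. Without KCl 1 h replicate 1, 565 genes were called, 476 of them among the 596 called with it, and the part of these libraries in other differences was not tested.

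Between 1 h and 3 h, 596 of 18095 tested genes differed (3.29%), 248 of them higher at 3 h (1.37%) and 348 lower (1.92%). A gene was called where edgeR's quasi-likelihood test gave a Benjamini-Hochberg adjusted p under 0.05 and the log2 fold change lay beyond 0.6 in either direction. The rises were large and mostly in mRNAs of low level, since 212 of the 248 exceeded 2-fold and their median level went from 0.839 CPM at 1 h to 2.75 CPM at 3 h. The falls were smaller and in better expressed genes, since 133 of the 348 exceeded 2-fold and their median level went from 11 to 5.82 CPM. In untreated cells the median level was 0.345 CPM for the genes that rose and 12.6 CPM for those that fell. Over all tested genes it was 8.7 CPM untreated and 8.42 CPM at 1 h. The genes higher at 3 h were thus mostly of low level before treatment. Of the 248, 84 had at most 3 counts in every untreated library, and the share of all tested genes this low was not counted. Such genes passed the low-count filter only through counts in other libraries. The median log2 fold change of all tested genes was 0.0066. In 246 of the 248 and 347 of the 348 called genes the 3 h and 1 h libraries did not overlap, against 18.1% of all tested genes. The calls were made from these same libraries, so this follows largely from the call and is no separate support. Without KCl 1 h replicate 2, the deepest library, 364 genes were called, and without both deep libraries, which leaves 1 library at 1 h, 150 genes were called, 143 of them among the 596. With the 6 libraries thinned to the same 19270518 counts, 560 genes were called.

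**Figure D1:**
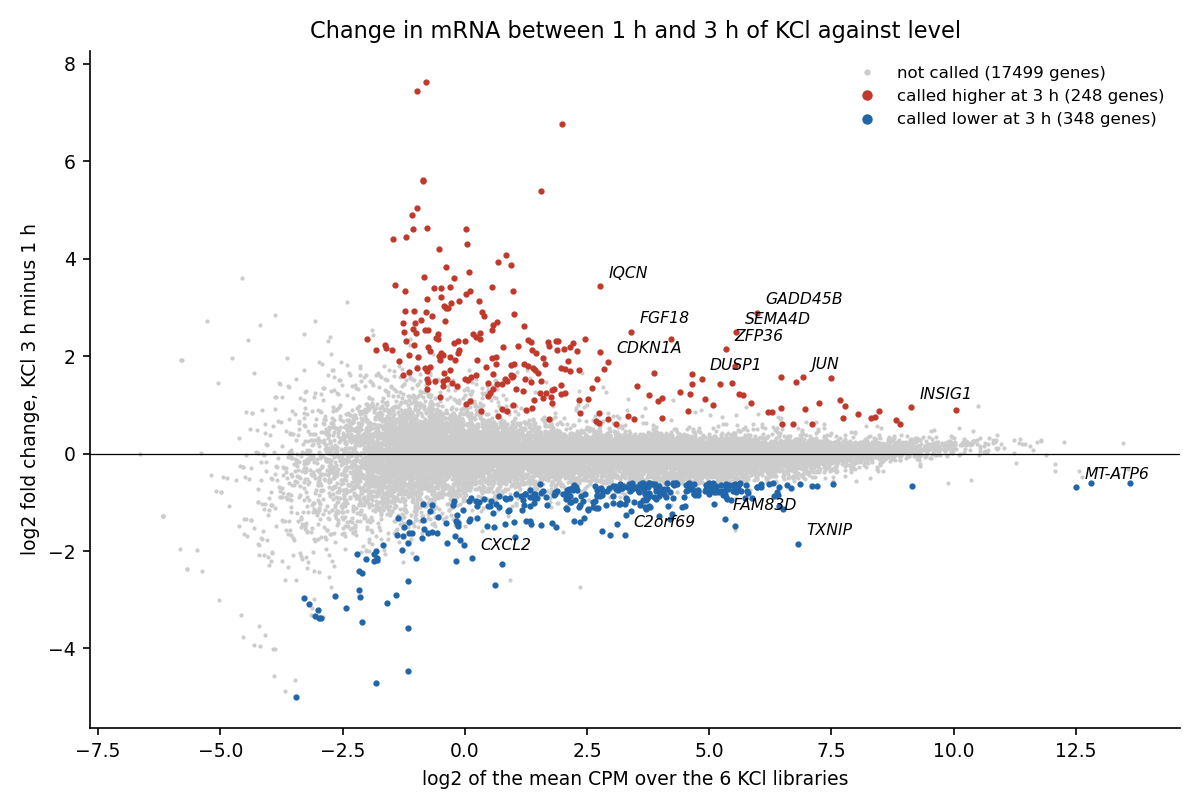
Each point is 1 of 18095 genes, with the log2 of its mean CPM over the 6 KCl libraries on the horizontal axis and the log2 fold change of 3 h minus 1 h on the vertical axis. The 248 genes called higher (red) lie mostly at low levels with large changes, and the 348 called lower (blue) extend to higher levels with smaller changes.

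Among the largest rises was that of GADD45B (chr19:2476122-2478259, GRCh38, 4 exons), which encodes an activator of the p38 and JNK pathway. It stood at 0.606, 0.314 and 1.39 CPM in the untreated replicates 1 to 3, at 13.2, 8.19 and 23.4 CPM at 1 h and at 134, 47.99 and 152 CPM at 3 h. The 3 h libraries were all above the 1 h libraries, and the 1 h libraries were all above the untreated ones. The rise from 1 h to 3 h was 7.44-fold (log2 fold change 2.90, SE 0.40, adjusted p = 7.79e-05). PPP1R15A (chr19:48872392-48876057), the cofactor that directs a phosphatase to the translation factor eIF2, stood at 70.7, 95.6 and 93.8 CPM untreated, at 105, 83.9 and 109 CPM at 1 h and at 183, 187 and 239 CPM at 3 h (log2 fold change 1.03, SE 0.20, adjusted p = 0.00256). Its 1 h libraries overlapped the untreated ones, and its 3 h libraries did not. GADD45A, a relative of GADD45B, stood at 99.2, 58.5 and 54.5 CPM at 1 h and 83.5, 57.5 and 60.8 CPM at 3 h and did not pass the test (adjusted p = 0.964). Of the 4 tested members of this list, 2 were called higher, against 1.37% of all genes (3 with the replicate block, GADD45G added).

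Several immediate early genes were higher at 3 h than at 1 h. Of the 22 tested members of the list, out of 26 listed, 7 were called higher and 0 lower, with a median log2 fold change of 0.630, against 1.37% called higher and a median of 0.0066 over all genes. JUN (chr1:58780788-58784327, a single-exon gene for a subunit of the AP-1 factor) stood at 15.98, 18.5 and 24.9 CPM untreated, at 48.8, 42.99 and 91.7 CPM at 1 h and at 136, 174 and 237 CPM at 3 h (log2 fold change 1.58, SE 0.26, adjusted p = 0.000584). FOSB (chr19:45467995-45475179), its AP-1 partner, stood at 19.98, 10.2 and 30.2 CPM at 1 h and 66.9, 30.5 and 65.2 CPM at 3 h, against 1.65, 1.100 and 2.79 CPM untreated (log2 fold change 1.43, SE 0.36, adjusted p = 0.0198). Both genes thus climbed in all 3 replicates, and in each group replicate 2 of FOSB was the lowest. FOS, the member that defines the class, stood at 0.827, 3.19 and 2.73 CPM untreated, at 34.1, 15.3 and 42.1 CPM at 1 h and at 53.3, 34.1 and 52.9 CPM at 3 h. Its 1 h and 3 h libraries overlapped, and the difference of 0.62 did not pass the test (adjusted p = 0.568).

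The orphan nuclear receptors of the NR4A family were among the immediate early genes that rose. NR4A2 (chr2:156324432-156342348) stood at 26.04, 23.6 and 21.5 CPM at 1 h and 82.05, 65.3 and 46.4 CPM at 3 h, against 5.18, 8.12 and 8.75 CPM untreated (log2 fold change 1.45, SE 0.21, adjusted p = 0.000105). NR4A1 (chr12:52022832-52059507) stood at 2.23, 1.16 and 2.35 CPM at 1 h and 7.25, 3.92 and 7.72 CPM at 3 h (log2 fold change 1.74, SE 0.29, adjusted p = 0.00052), and its untreated level of 1.21, 1.68 and 1.56 CPM overlapped that at 1 h. The other called members were the small MAF protein gene MAFF (log2 fold change 1.73), the zinc finger factor KLF4 (1.48) and the apoptosis regulator IER3 (1.19). MAFF was at 3.25, 5.396 and 4.85 CPM untreated, 4.296, 2.83 and 3.0 CPM at 1 h and 8.08, 11.5 and 13.5 CPM at 3 h, so only the 3 h libraries stood above the untreated ones. IER3 had already risen at 1 h, at 34.8, 20.96 and 38.1 CPM against 6.01, 7.33 and 12.99 CPM untreated, and reached 90.4, 43.1 and 80.7 CPM. Of the 7 calls, 4 were made without KCl 1 h replicate 2 and 1, JUN, without both deep libraries, where the list's median was 0.381 and 0.810. Without KCl 1 h replicate 3 the median was 1.008, without KCl 3 h replicate 3 it was 0.369, and with the replicate block 8 members were called.

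Short stretches of the promoters of 5 of these genes show elements known from stress-inducible promoters. They are RefSeq sequences on GRCh38.p14, read 5′ to 3′ on the strand of the gene with the element in capitals and 25 bases on each side. The first 3 hold the palindrome TGACGTCA, the cyclic AMP response element bound by CREB and ATF factors, in MAFF (chr22:38201915-38201972, plus strand), PPP1R15A (chr19:48872338-48872395, plus strand) and DUSP1 (chr5:172771288-172771345, minus strand). The other pair hold a TATA box just upstream of the start of FOSB (chr19:45467941-45467996, plus strand) and GADD45B (chr19:2476071-2476126, plus strand).
MAFF: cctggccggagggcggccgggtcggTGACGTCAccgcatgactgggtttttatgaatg
PPP1R15A: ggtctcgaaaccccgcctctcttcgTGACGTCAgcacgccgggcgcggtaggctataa
DUSP1: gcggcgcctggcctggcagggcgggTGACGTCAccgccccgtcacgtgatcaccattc
FOSB: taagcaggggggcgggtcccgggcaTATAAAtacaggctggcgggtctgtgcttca
GADD45B: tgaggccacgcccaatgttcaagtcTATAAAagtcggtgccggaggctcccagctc

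These elements were searched in windows of 300 bases, from 250 bases before to 50 bases after each gene's start, on both strands. The letters TATAAA were in 24 of 154 promoters of genes called higher (15.6%), in 18 of 225 promoters of genes called lower (8.0%), in 4 of 16 promoters of the immediate early list (25.0%) and in 6.00% of the 11224 promoters of all tested genes. TGACGTCA was in 10 of the 154 (6.49%), in 4.44% of the promoters of genes called lower and in 3.31% of all tested ones. The AP-1 element TGANTCA was in 7.14% of the promoters of genes called higher, 4.0% of those called lower and 4.40% of all. TGGAAA, the core of the element bound by NFAT5, was in 14.3%, 17.8% and 15.2% in the same order. The NF-kB element was in 30.5%, 30.2% and 30.7%, and GAANNTTC, part of a heat shock element, was in 5.19%, 4.89% and 4.70%. The core of the serum response element was in 0 of the 154, in 1 of the 16 promoters of the immediate early list (6.25%) and in 5 of the 11224 (0.0445%). The letters of some elements can overlap in 1 promoter, and a match describes the sequence only. The stretches shown are examples from genes called higher. Among named genes that were not called, CCNA2 also held TGACGTCA, and FOS and ATF4 also held TATAAA. SEMA4D, ERRFI1, NR4A1 and KLF4, which were called higher, held none of the elements.

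Genes that restrain kinase signalling moved in both directions. DUSP1 (chr5:172768090-172771195), the dual-specificity phosphatase of p38 and JNK, stood at 10.4, 10.7 and 11.7 CPM untreated, at 14.3, 12.7 and 16.98 CPM at 1 h and at 39.2, 40.6 and 48.5 CPM at 3 h (log2 fold change 1.54, SE 0.14, adjusted p = 4.47e-07). Its libraries lay close together within each group, and the 3 groups did not overlap. ERRFI1 (chr1:8004404-8026308), an inhibitor of the EGF receptor, stood at 7.402, 4.75 and 6.37 CPM at 1 h and 36.7, 17.1 and 39.7 CPM at 3 h, against 2.09, 2.62 and 3.57 CPM untreated (log2 fold change 2.35, SE 0.25, adjusted p = 4.37e-06). By contrast, SPRY2, an inhibitor of receptor tyrosine kinase signalling, fell from 3.99, 6.04 and 5.72 to 2.55, 2.93 and 3.42 CPM (log2 fold change -0.84, SE 0.19, adjusted p = 0.00774), and its relative SPRED2 fell from 99.5, 98.2 and 87.05 to 59.97, 66.3 and 61.3 CPM (log2 fold change -0.60, SE 0.14, adjusted p = 0.0115). Of the 11 tested members of the feedback list (14 listed), 1 was called higher (9.09%, against 1.37% of all genes) and 2 lower (18.2%, against 1.92%). A second member, DUSP10, was called higher when replicates entered as a block (2 of 11). The calls lower numbered 1 with DESeq2 and 0 without KCl 1 h replicate 2 or without KCl 3 h replicate 1. They numbered 3 without KCl 1 h replicate 3, where the list's median was 0.489. The median was 0.161 as reported, -0.132 without KCl 1 h replicate 2 and -0.222 without KCl 3 h replicate 3.

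In a list of mRNA decay and antiproliferative genes, 3 of 9 tested members were called higher (against 1.37% of all genes) and 0 lower, with a median of 0.371. Without KCl 1 h replicate 2, 2 of the 9 were called. ZFP36 (chr19:39406813-39409412, 2 exons), the tristetraprolin gene, stood at 11.2, 12.1 and 10.9 CPM untreated, at 15.01, 13.9 and 16.02 CPM at 1 h and at 67.5, 67.6 and 63.4 CPM at 3 h. The replicates lay within a few CPM of each other, and the rise was 4.41-fold (log2 fold change 2.14, SE 0.14, adjusted p = 5.39e-10). Against untreated cells its change was 0.39 (adjusted p = 0.106) at 1 h and 2.54 (adjusted p = 2.48e-11) at 3 h, 2 contrasts that share the untreated libraries. ZC3H12A, a ribonuclease that cuts stem-loops in inflammatory mRNAs, went from 11.1, 13.01 and 19.1 to 30.9, 29.2 and 41.8 CPM (log2 fold change 1.23, SE 0.18, adjusted p = 9.7e-05). ZFP36L1, a relative of ZFP36, was at 66.9, 50.2 and 49.4 CPM at 1 h and 135, 83.8 and 83.6 CPM at 3 h (log2 fold change 0.86, SE 0.20, adjusted p = 0.0117), a call that was lost in 3 of the 6 fits that leave out 1 library.

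Further large rises were in genes for signalling and growth control. SEMA4D (chr9:89360787-89498130, 16 exons), a membrane-bound semaphorin, stood at 3.14, 3.62 and 3.51 CPM untreated, at 11.7, 14.8 and 15.7 CPM at 1 h and at 77.5, 79.4 and 82.3 CPM at 3 h. This was a 5.66-fold rise with little spread between the replicates (log2 fold change 2.50, SE 0.14, adjusted p = 2.97e-11). CDKN1A (chr6:36676460-36687339), the cyclin-dependent kinase inhibitor p21, stood at 3.52, 1.93 and 4.33 CPM at 1 h and 13.5, 5.53 and 16.9 CPM at 3 h, against 1.87, 2.095 and 2.34 CPM untreated (log2 fold change 1.89, SE 0.34, adjusted p = 0.00123). The 1 h libraries of CDKN1A overlapped the untreated ones. It was the only called gene among 13 tested G1 cyclins and inhibitors (7.69%, against 1.37% of all genes called higher). CCND1 was at 10.3, 6.78 and 10.02 CPM at 1 h and 6.805, 5.05 and 8.56 CPM at 3 h (adjusted p = 0.755). KCNQ1OT1 (chr11:2608328-2699994), a long non-coding RNA of an imprinted locus, stood at 33.7, 25.9 and 33.95 CPM untreated, 13.7, 18.9 and 29.2 CPM at 1 h and 74.9, 67.9 and 73.3 CPM at 3 h (log2 fold change 1.8, SE 0.23, adjusted p = 3.5e-05). It overlaps 5 annotated genes, and counting took no strand into account, so reads of its antisense partner cannot be told apart. SOCS3, a feedback inhibitor of cytokine receptors, went from 24.6, 12.4 and 20.3 to 47.3, 31.1 and 44.8 CPM (log2 fold change 1.12, SE 0.25, adjusted p = 0.00803) and at 3 h lay near its untreated 27.6, 34.00 and 25.5 CPM. BCL6, a transcriptional repressor, went from 8.75, 4.25 and 6.07 to 13.3, 11.1 and 25.04 CPM (log2 fold change 1.39, SE 0.32, adjusted p = 0.00919). SOCS3 and BCL6 were the 2 called among 8 tested genes of STAT5 and cytokine signalling (25%, against 1.37% of all genes called higher). The median of that list was 0.011, and 4 of its 8 changes were positive.

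**Figure D2:**
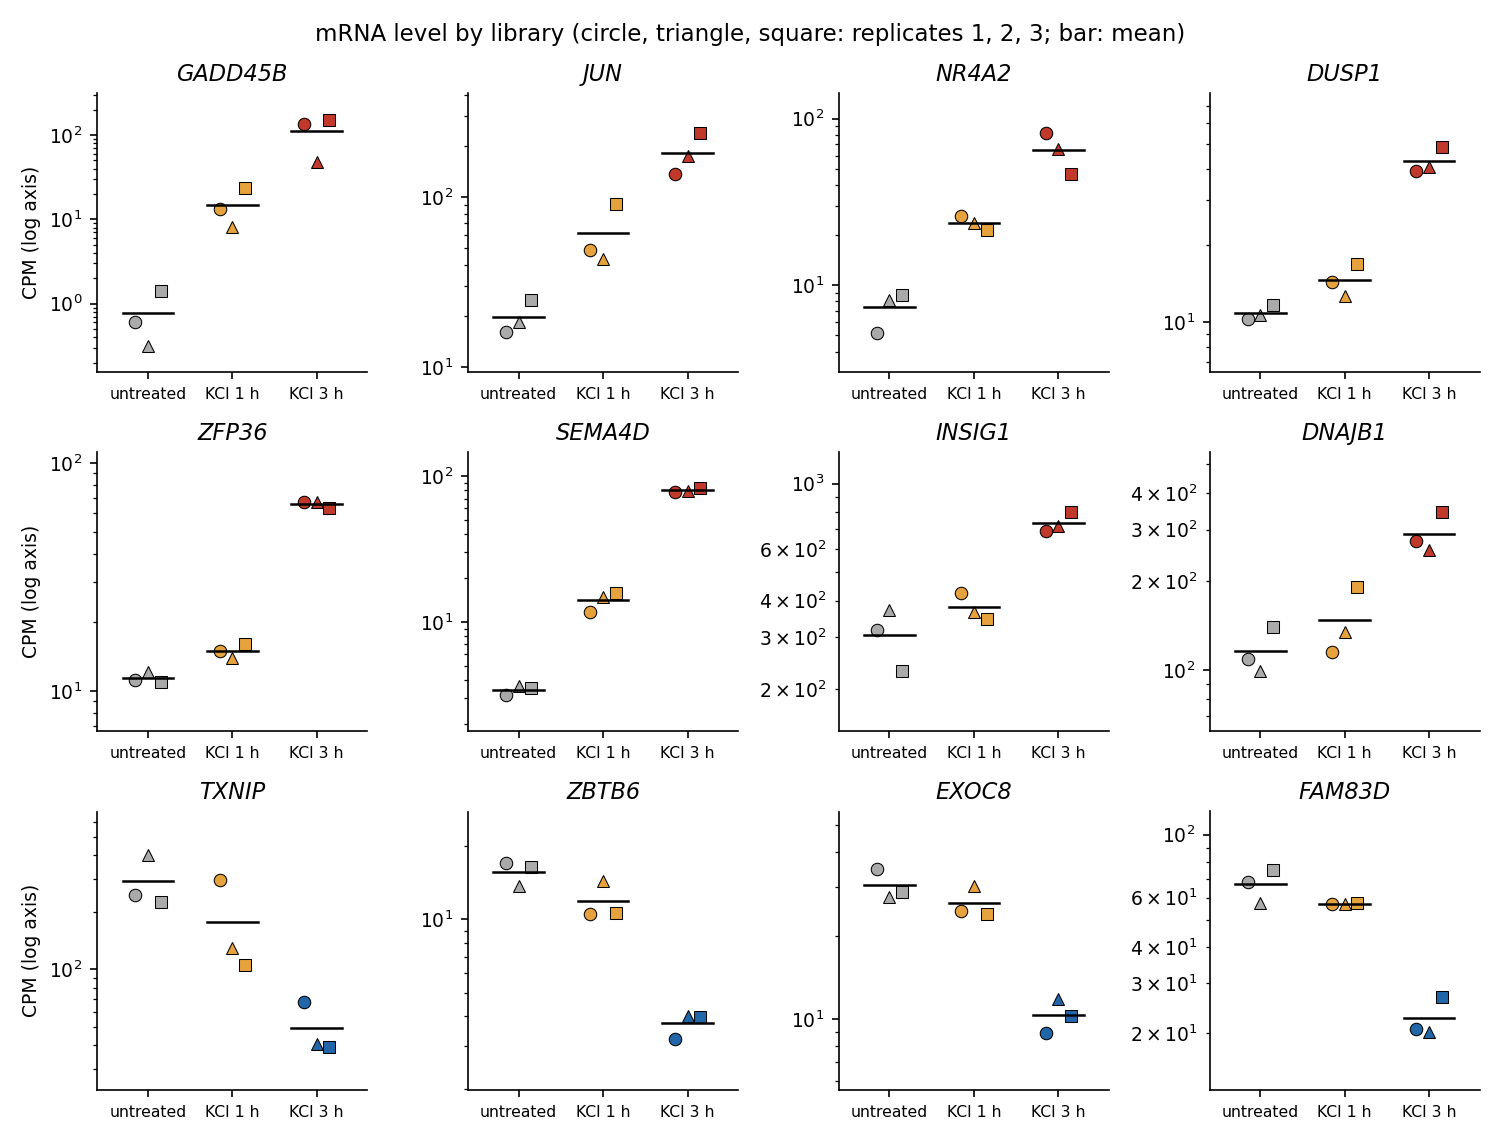
mRNA level in CPM on a log axis for 12 genes in the untreated, KCl 1 h and KCl 3 h libraries, with 1 symbol per replicate and a bar at the mean. In GADD45B, DUSP1, ZFP36, SEMA4D and the other rising genes all 3 h libraries lie above the 1 h libraries, and in TXNIP, ZBTB6, EXOC8 and FAM83D all lie below.

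Several genes of cholesterol synthesis rose. Of 9 tested, 4 were called higher (against 1.37% of all genes) and 0 lower, the median was 0.565 and 8 of the 9 changes were positive. INSIG1, the sterol sensor of the endoplasmic reticulum and a target of SREBP, went from 426, 367 and 346 CPM at 1 h to 689.9, 719.9 and 800.1 CPM at 3 h (log2 fold change 0.96, SE 0.20, adjusted p = 0.00549). SQLE, squalene epoxidase, went from 259, 250.5 and 240.0 to 431, 383 and 569 CPM (log2 fold change 0.89, SE 0.12, adjusted p = 5.23e-05). IDI1, an isomerase of the pathway, went from 172, 169 and 143 to 253, 245 and 303 CPM (log2 fold change 0.73, SE 0.14, adjusted p = 0.0022), and HMGCS1, an early synthase of the pathway, from 374, 361 and 297 to 537, 547 and 584 CPM (log2 fold change 0.69, SE 0.12, adjusted p = 0.000897). In none of these 4 genes did the 3 h and 1 h libraries overlap, which follows largely from the call. Over the list there was no overlap in 5 of the 9 genes (55.6%, against 18.1% of all genes). The 9 genes of the list differed little at 1 h, with a median log2 fold change against untreated cells of 0.089 at 1 h and 0.655 at 3 h. Without both deep libraries 1 of the 9 was called, SQLE, with a median of 0.480, the median was 0.356 without KCl 3 h replicate 3, and within the replicate pairs 1, 2 and 3 the list's median was 0.256, 0.370 and 0.974.

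Chaperone genes showed a smaller shift. Of 18 tested heat shock genes, 2 were called higher (against 1.37% of all genes) and 0 lower, with a median of 0.244. This median was 0.091 without KCl 3 h replicate 2, 0.434 without KCl 3 h replicate 3 and 0.384 without KCl 1 h replicate 2. DNAJB1, the co-chaperone that activates HSP70, went from 115, 135 and 192 to 274, 255 and 344 CPM (log2 fold change 0.98, SE 0.17, adjusted p = 0.000598), and DNAJA1 went from 348, 427 and 368 to 591, 629.6 and 519 CPM (log2 fold change 0.60, SE 0.14, adjusted p = 0.011). HSF1, the factor that drives these genes, stood at 60.2, 54.6 and 67.8 and 65.01, 68.2 and 64.7 CPM (adjusted p = 0.771). The DNAJA1 call was lost in 4 of the 6 fits that leave out 1 library, and 1 heat shock gene was then called in each of those.

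In the lists classically tied to osmotic adaptation no gene was called between 1 h and 3 h. Over all tested genes 3.29% were called in either direction, a share at which lists as short as these can hold 0 calls. Of 9 tested NFAT5 and osmolyte genes 0 were called, with a median of 0.084. NFAT5 stood at 87.8, 79.7 and 80.5 CPM untreated, at 104, 119 and 152 CPM at 1 h and at 112, 102 and 128 CPM at 3 h (log2 fold change -0.13, adjusted p = 0.742). Its change against untreated cells was 0.60 (adjusted p = 0.00384) at 1 h and 0.46 (adjusted p = 0.0133) at 3 h. With the replicate block 1 of the 9 was called higher, SGK1, a kinase that regulates ion transport (adjusted p = 0.0172 against 0.117 without it), which stood at 34.6, 29.3 and 46.5 CPM at 1 h and 90.1, 36.4 and 86.6 CPM at 3 h. Of 18 ion and volume transport genes 0 were called, and WNK1, a kinase that senses chloride and volume, stood at 276, 314 and 317 and 283, 304 and 286 CPM. Of 11 tested stress kinase genes (12 listed) 0 were called, with MAP3K5 at 36.7, 29.9 and 38.8 and 36.3, 27.5 and 32.1 CPM. At an unadjusted p under 0.05, 2696 of the 18095 genes differed, so a difference that was not called may still exist at this size of experiment.

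In the other lists few or no members were called, where 3.29% of all genes were called in either direction. Of 21 tested NF-kB targets and cytokines (23 listed), 1 was called higher, FGF18, and 1 lower, CXCL2. This was 4.76% in each direction, against 1.37% and 1.92% of all genes. CXCL2, a neutrophil attractant, went from 2.38, 1.39 and 1.605 to 0.538, 0.189 and 0.445 CPM (log2 fold change -2.15, SE 0.47, adjusted p = 0.00605). NFKBIA, the inhibitor that NF-kB induces, stood at 20.3, 20.1 and 25.5 CPM at 1 h and 30.6, 39.2 and 19.7 CPM at 3 h (adjusted p = 0.301). The lists of ATF4 targets (19 tested), SMAD and ID genes (6), the BCL2 family (12), MYC and its partners (9), ribosome biogenesis (18), DNA replication (16), mitosis (16), the actin cytoskeleton (11), glucose metabolism (10), splicing kinases and SR proteins (17) and erythroid genes (17) held 0 called members. The ATF4 targets nevertheless differed within the replicate pairs, with a median of -0.559 in pair 1, 0.229 in pair 2 and 0.511 in pair 3. In the MYC list 1 of 9 changes was positive, and 4 of the 9 genes did not overlap between 1 h and 3 h (44.4%, against 18.1%). Examples of the lists without a call are GATA1, the master regulator of erythroid genes, at 159, 127 and 204 and 166, 157 and 180.2 CPM, MCM2, a subunit of the replicative helicase, at 203, 180.0 and 153 and 201, 209.7 and 178 CPM, and CCNA2, a cyclin of S phase and mitosis, at 281, 334 and 237 and 292, 328 and 253 CPM. MYC stood at 363, 254 and 300.3 CPM at 1 h and 241, 205 and 176 CPM at 3 h, with a log2 fold change of -0.56 that did not pass the test (adjusted p = 0.365). CLK1, a kinase of splicing factors, went from 50.1, 46.7 and 45.1 to 34.5, 33.5 and 29.5 CPM, a log2 fold change of -0.54 with an adjusted p of 0.00331 but below the fold threshold.

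**Figure D3:**
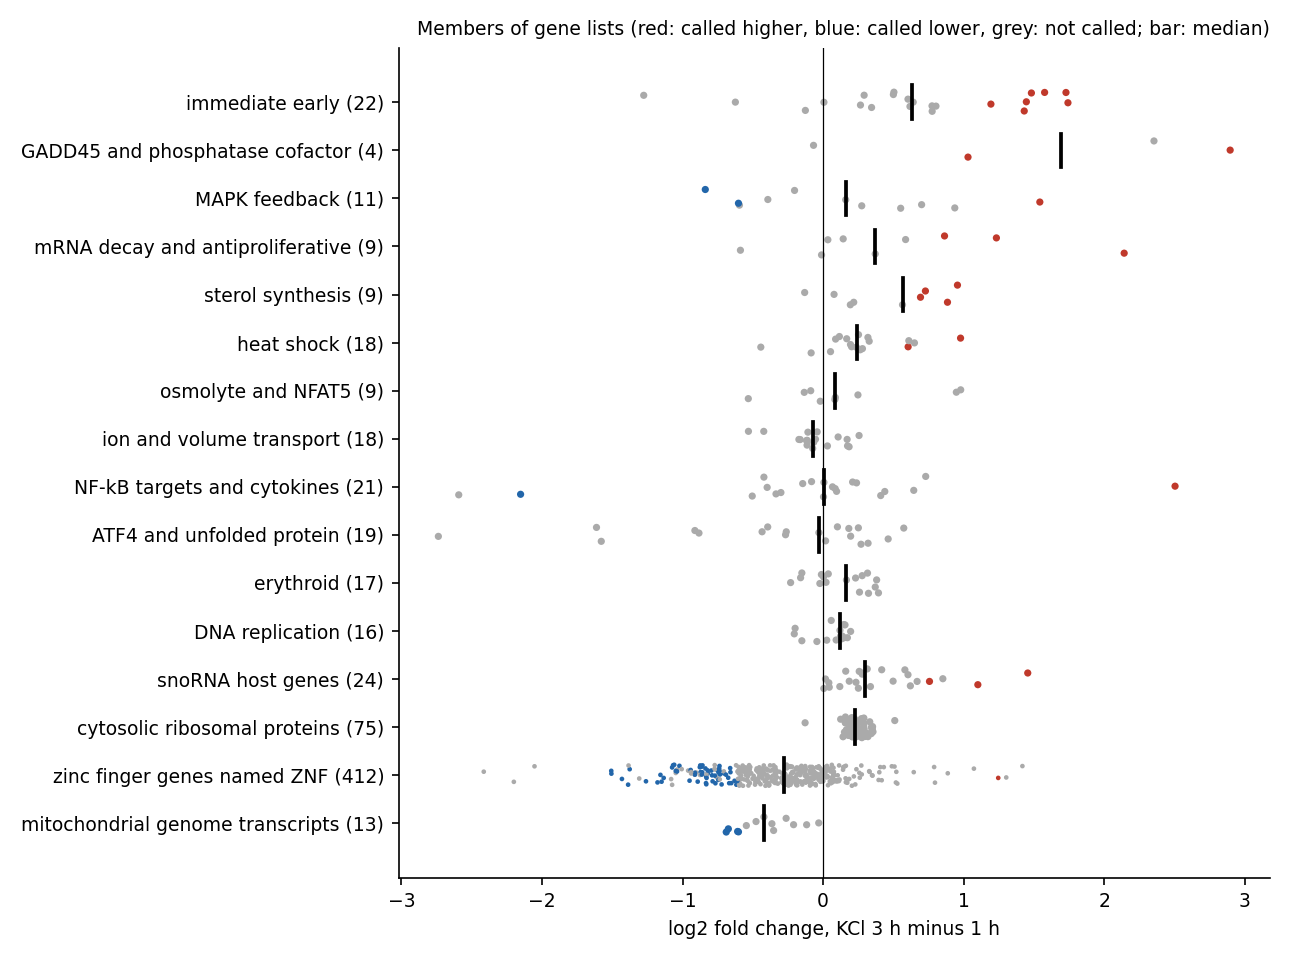
Each point is the log2 fold change of 3 h minus 1 h of 1 tested gene, by gene list with the number tested, red where called higher, blue where called lower and grey where not called, and the bar is the median of the list. The immediate early (0.630) and sterol synthesis (0.565) medians lie to the right, those of ZNF genes (-0.278) and mitochondrial transcripts (-0.421) to the left, and the osmolyte and ion transport lists near 0.

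Some of the named rises were in genes that start downstream of an expressed gene on the same strand, a position described here after the values were seen. IQCN (chr19:18257097-18274509), a gene for an IQ motif protein, starts 5251 bases beyond the end of JUND. It was at 0.1102, 0.105 and 0.112 CPM untreated, 0.725, 1.27 and 1.35 CPM at 1 h and 7.64, 22.1 and 7.87 CPM at 3 h (log2 fold change 3.44, SE 0.41, adjusted p = 1.45e-05). This was the largest rise among called genes with a symbol, no overlap and a mean of at least 10 CPM at 3 h. Only replicate 2 at 3 h was itself above 10 CPM. FGF18 (chr5:171419656-171457623), a fibroblast growth factor, starts 8519 bases beyond NPM1 and went from 2.02, 3.37 and 4.0 to 16.6, 21.4 and 16.1 CPM (log2 fold change 2.50, SE 0.29, adjusted p = 1.45e-05), with at most 1 count in every untreated library. LINC02481 (chr4:6687448-6690519), a long non-coding RNA, starts 17182 bases beyond MRFAP1L1 and went from 1.97, 2.06 and 3.72 to 11.7, 7.61 and 13.8 CPM (log2 fold change 2.08, SE 0.46, adjusted p = 0.0068). All 3 were far higher at 3 h than at 1 h, and the LINC02481 call was lost without KCl 1 h replicate 2. Low-level transcripts of the same kind were YPEL3-DT (11053 bases beyond PPP4C, from 0.311, 0.887 and 1.09 to 3.52, 2.598 and 6.14 CPM) and IDI2-AS1 (2730 bases beyond GTPBP4, from 0.103, 0.184 and 0.233 to 1.67, 1.23 and 2.08 CPM). ZFP36 itself starts 6176 bases beyond MED29. LINC02481 and YPEL3-DT lie beyond the distance used for the count that follows. For that count, 842 tested genes overlap no gene and start at most 10000 bases beyond a gene on their strand whose mean is at least 10 CPM. Of these, 21 were called higher (2.49%) and 13 lower (1.54%), against 1.37% and 1.92% of all genes. The share called higher was thus above that of all genes, while the median, 0.041, lay near theirs (0.007). With the replicate block 30 of the 842 were called higher and 17 lower, against 347 and 438 of all 18095 genes. Of 238 tested divergent transcripts (578 annotated) 2 were called higher (0.84%, and 4 with the replicate block) and 0 lower. Of 510 tested antisense transcripts (1834 annotated) 5 were called higher (0.98%) and 8 lower (1.57%). The largest fall among those with a mean of at least 1 CPM at 1 h was that of PKP4-AS1, which went from 2.54, 2.81 and 2.56 to 0.441, 0.614 and 0.148 CPM (log2 fold change -2.69, SE 0.38, adjusted p = 7.16e-05) and overlaps 3 genes.

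Among called genes with a symbol and a mean of at least 10 CPM at 1 h, the largest fall was that of TXNIP (chr1:145992435-145996600, 8 exons), the thioredoxin inhibitor that also restrains glucose uptake. It stood at 246, 402 and 227 CPM untreated, at 295, 130.3 and 106 CPM at 1 h and at 67.6, 40.4 and 39.05 CPM at 3 h (log2 fold change -1.85, SE 0.40, adjusted p = 0.00687). All 3 h libraries were below all 1 h libraries, but replicate 1 at 1 h, the library that stood apart in ATF4, was far above the other two, and the call was lost without it or without KCl 3 h replicate 3. GRPEL2 (chr5:149345430-149354583), a nucleotide exchange factor of mitochondrial HSP70, showed the same high replicate 1, at 104, 55.6 and 45.5 CPM at 1 h and 31.1, 25.1 and 16.8 CPM at 3 h (log2 fold change -1.48, SE 0.41, adjusted p = 0.039), and its call was lost in 5 of the 6 fits that leave out 1 library.

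The remaining large falls were tighter, apart from that of FZD4. ZBTB6 (chr9:122908056-122913330), a zinc finger factor gene of 2 exons, stood at 17.1, 13.8 and 16.4 CPM untreated, 10.6, 14.4 and 10.7 CPM at 1 h and 3.23, 4.01 and 3.96 CPM at 3 h, a 3.19-fold fall (log2 fold change -1.67, SE 0.17, adjusted p = 1.46e-06). KBTBD6 (chr13:41127569-41132746), a single-exon gene for a ubiquitin ligase adaptor, went from 9.06, 10.8 and 11.7 to 3.62, 3.78 and 3.12 CPM (log2 fold change -1.59, SE 0.18, adjusted p = 9.3e-06). EXOC8 (chr1:231332753-231337852), a single-exon gene for a subunit of the exocyst, went from 24.6, 30.3 and 23.96 to 8.91, 11.8 and 10.3 CPM (log2 fold change -1.35, SE 0.12, adjusted p = 4.47e-07). None of these 3 genes was called between untreated cells and KCl at 1 h. MED9 (chr17:17476986-17493226, 2 exons), a Mediator subunit, went from 12.6, 13.1 and 12.3 to 4.700, 5.81 and 3.37 CPM (log2 fold change -1.46, SE 0.18, adjusted p = 2.33e-05), and C2orf69 (chr2:199911256-199955935, 2 exons) from 12.3, 18.1 and 13.7 to 4.36, 4.72 and 4.702 CPM (log2 fold change -1.68, SE 0.18, adjusted p = 5.04e-06). FAM83D (chr20:38926312-38953106), a spindle protein gene, was at 56.8, 56.9 and 57.3 CPM in the 1 h libraries and at 20.7, 20.1 and 26.8 CPM at 3 h (log2 fold change -1.34, SE 0.16, adjusted p = 1.45e-05). FZD4 (chr11:86945679-86955391, 2 exons), a Wnt receptor, went from 18.2, 17.8 and 30.5 to 9.01, 7.75 and 10.6 CPM (log2 fold change -1.28, SE 0.30, adjusted p = 0.0119), a call that was lost without KCl 1 h replicate 3 or without KCl 3 h replicate 2.

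Zinc finger genes were frequent among the falls. Of 412 tested genes with a ZNF symbol (477 annotated), many of them KRAB zinc finger repressors, 60 were called lower (14.6%, against 1.92% of all genes) and 1 higher, and the median was -0.278. In 167 of the 412 the 3 h and 1 h libraries did not overlap (40.5%, against 18.1%). ZNF627 (chr19:11559374-11619135) went from 17.6, 12.9 and 11.02 to 6.85, 5.76 and 4.603 CPM (log2 fold change -1.26, SE 0.18, adjusted p = 8.92e-05), and ZNF14 (chr19:19710471-19733097) from 4.66, 5.94 and 5.47 to 2.105, 1.98 and 1.58 CPM (log2 fold change -1.51, SE 0.24, adjusted p = 0.000289). The exception was ZNF439 (chr19:11848726-11883750), which rose from 1.71, 1.62 and 1.81 to 4.01, 4.39 and 3.81 CPM (log2 fold change 1.25, SE 0.28, adjusted p = 0.00868) and was at 0.1102, 0.262 and 0.223 CPM untreated. Within the replicate pairs 1, 2 and 3 the median of the ZNF genes was -0.250, -0.345 and -0.238, and against untreated cells it was 0.006 at 1 h and -0.285 at 3 h. The ZNF genes called lower numbered 73 with the replicate block, 37 without KCl 1 h replicate 2, 39 without KCl 3 h replicate 2 and 19 without both deep libraries, where the median was -0.290, -0.269 and -0.250.

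Few exons marked the genes lower at 3 h beyond the ZNF class. Among 299 tested protein-coding genes with a single exon in the canonical transcript 10.4% were called lower, among 1331 with 2 to 3 exons 7.14%, among 2847 with 4 to 6 exons 3.09%, among 3964 with 7 to 12 exons 0.959%, and among 4263 with 13 or more exons 0.516%. The share called higher changed less over these classes, from 2.34% to 1.13%. The median log2 fold change was -0.161 for single-exon genes, -0.114 for 2 to 3 exons and 0.013 for 13 or more, and in single-exon genes it was negative within each replicate pair (-0.132, -0.076 and -0.186). Of the 274 protein-coding genes called lower, 126 had up to 3 exons (46.0%, against 12.8% of all 12704), and without ZNF genes this was 116 of 214 (54.2%, against 12.6%). Their transcripts had a median GC content of 42.2%, against 48.5% for all and 51.5% for the genes called higher. Their median 3′ untranslated region was 2406 bases long, against 1257 for all and 1060 for the genes called higher. The heptamer TATTTAT, the core of AU-rich decay elements, was in that region in 58.8% of genes called lower, 40.4% of genes called higher and 34.4% of all, or 0.439, 0.419 and 0.324 times per kilobase.

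GC content moved with the change over all genes, from a median of -0.083 in the fifth of genes with the lowest GC content (23.1 to 40.9%, 3.91% called lower) to 0.059 in the fifth with the highest (57.5 to 76.0%, 0.558% called lower). The smooth dependence on GC content was therefore removed in each library as an alternative chosen after seeing the data. With it, 9.36% of single-exon genes and 0.446% of genes with 13 or more exons were called lower, and 52 of the 412 ZNF genes. Without both deep libraries the shares were 3.68% and 0.188%. With the replicate number as a block and no GC correction, they were 11% and 0.798%.

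**Figure D4:**
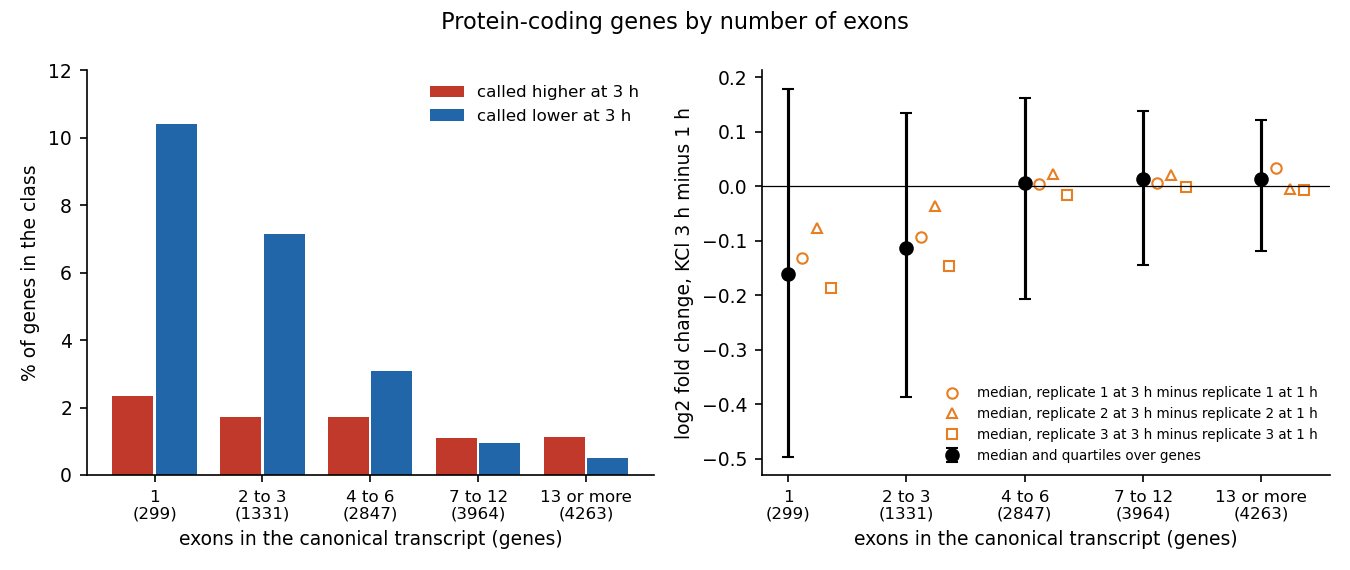
Left, the percent of tested protein-coding genes called higher (red) or lower (blue) at 3 h, by number of exons, with the number of genes in brackets. Right, the median log2 fold change of 3 h minus 1 h with quartiles over genes (black) and the medians within each replicate pair (orange). The share called lower falls from 10.4% in single-exon genes to 0.516% in genes with 13 or more exons.

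Many genes that rose in mRNA by 3 h were already higher in nuclear RNA at 1 h. Those that fell were called there in shares nearer to those of all genes. In those libraries 5227 of 21929 genes were called between KCl and untreated cells (23.8%), 15.3% higher and 8.5% lower. Of the 248 genes higher at 3 h in mRNA, 206 were tested in nuclear RNA, and 133 of these were already called higher there at 1 h (64.6%), against 9.77% of the 16728 genes tested in both. Their median nuclear log2 fold change was 1.362, against 0.009 for all, and 0.541 for those with a mean of at least 10 CPM. It was 1.362 also with the 5 genes at 0 in every untreated nuclear library set to the bound that 3 counts over that group allow. Of the 348 genes lower at 3 h, 347 were tested in nuclear RNA, with a median of -0.034. Of these, 16 were called higher there (4.61%, against 9.77%) and 33 lower (9.51%, against 6.42%). Among protein-coding genes with a mean of at least 10 CPM, 24 of 47 that rose were called higher in nuclear RNA (51.1%, against 1.02%). Of the 179 such genes that fell, 0 were called higher (against 1.02%) and 2 lower (1.12%, against 0.484%). In mRNA the median level of the 248 genes also went from 0.345 CPM untreated to 0.839 CPM at 1 h. Whether nuclear RNA rose before mRNA was not tested. The nuclear and mRNA libraries are separate libraries, and whether they came from the same cultures is not given in the sources used here.

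Individual genes differed in this respect. In nuclear RNA at 1 h the log2 fold change was 3.67 (adjusted p = 4.2e-10) for GADD45B, 3.04 (adjusted p = 4.02e-11) for SEMA4D, 1.54 (adjusted p = 1.14e-05) for NR4A2 and 1.28 (adjusted p = 0.00108) for JUN. The mean nuclear level of IQCN went from 0.248 to 32.9 CPM and that of FGF18 from 0.0812 to 8.09 CPM. These 6 genes were thus called higher in nuclear RNA at 1 h. The nuclear change was 0.62 (adjusted p = 0.00107) for ZFP36 and 0.56 (adjusted p = 0.00129) for DUSP1, the second of which fell short of the fold threshold. INSIG1 (0.03, adjusted p = 0.909), SQLE (0.02, adjusted p = 0.942), MAFF (-0.21, adjusted p = 0.413) and KCNQ1OT1 (0.04, adjusted p = 0.832) were not called in nuclear RNA at 1 h. Of the falling genes, ZBTB6 (-0.10, adjusted p = 0.749), KBTBD6 (-0.04, adjusted p = 0.879) and EXOC8 (-0.03, adjusted p = 0.9) were not called either, and TXNIP (-0.48, adjusted p = 0.0122) and MED9 (-0.45, adjusted p = 0.00684) fell short of the fold threshold.

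**Figure D5:**
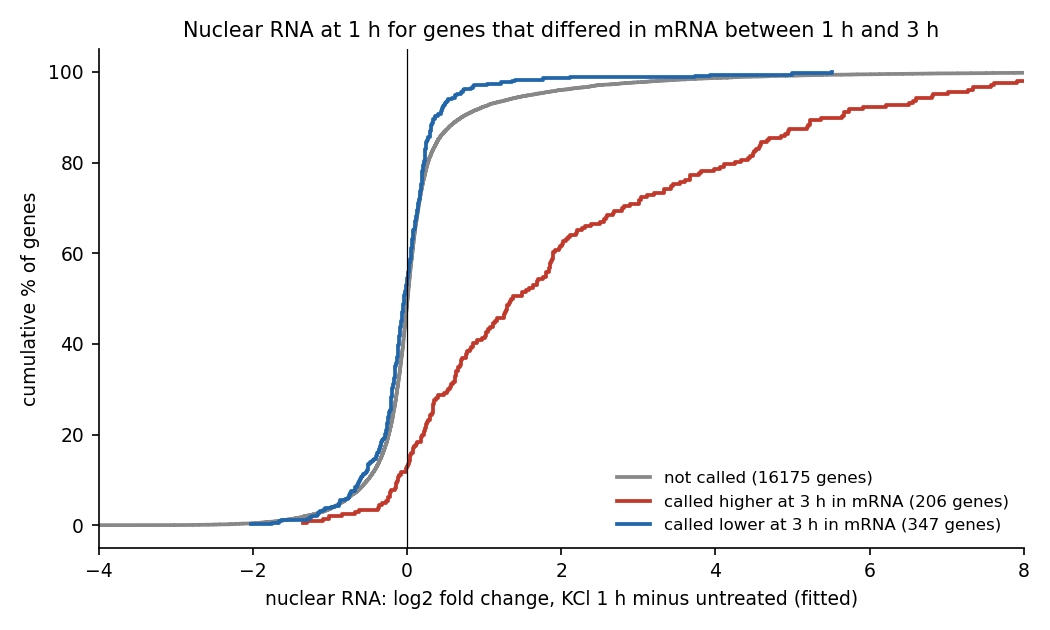
Cumulative percent of genes against the fitted log2 fold change of KCl 1 h minus untreated in nuclear RNA, for genes called higher (red, 206 genes), called lower (blue, 347 genes) or not called between 3 h and 1 h in mRNA (grey). The red curve is shifted to the right with a median of 1.362 (0.541 for genes with a mean of at least 10 CPM), and the blue curve, with a median of -0.034, runs close to the grey one.

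Transcripts of abundant housekeeping machinery shifted slightly and in opposite directions. Of 75 tested cytosolic ribosomal protein genes (77 listed) 0 were called, yet 74 of the 75 changes were positive, the median was 0.225, and in 55 the 3 h libraries did not overlap the 1 h libraries (73.3%, against 18.1%). Of the 13 mRNAs encoded by the mitochondrial genome 4 were called lower (30.8%, against 1.92% of all genes), 0 changes were positive and the median was -0.421. MT-ATP6, a subunit of ATP synthase, went from 6614, 8813 and 6109 CPM at 1 h to 3823, 5087 and 4444 CPM at 3 h (log2 fold change -0.69, SE 0.13, adjusted p = 0.00165). The mitochondrial calls numbered 0 without KCl 1 h replicate 2, 0 without KCl 3 h replicate 1 and 0 without both deep libraries, with medians of -0.298, -0.307 and -0.352, and 1 with the GC correction. Of 24 tested snoRNA host genes (29 listed) 3 were called higher (12.5%, against 1.37% of all genes) and all 24 changes were positive (median 0.297). The calls numbered 4 with the replicate block, 2 without KCl 1 h replicate 2, 1 in a fit of only the 6 KCl libraries and 0 without both deep libraries. SNHG1 went from 277, 255 and 215 to 415, 472 and 376 CPM (log2 fold change 0.76, SE 0.13, adjusted p = 0.000488), SNHG19 from 3.62, 3.15 and 2.91 to 6.17, 9.64 and 4.801 CPM, and SNHG14, which was called at a low level, from 0.518, 0.435 and 0.372 to 1.81, 1.09 and 0.693 CPM. Of 26 tested microRNA host genes (73 listed) 1 was called higher (3.85%, against 1.37% of all genes, and 2 with the replicate block, MIR22HG added). This was MIR23AHG (chr19:13834516-13836289), from 1.45, 1.51 and 2.54 to 6.22, 7.04 and 10.8 CPM (log2 fold change 2.11, SE 0.29, adjusted p = 6.47e-05). Of 43 tested replication-dependent histone genes (65 listed) 4 were called higher (9.3%, against 1.37% of all genes), with a median of 0.297. The calls numbered 6 with the replicate block, and 0 without KCl 1 h replicate 2, without KCl 1 h replicate 3 or without KCl 3 h replicate 3, and the median was 0.071 without KCl 1 h replicate 3 and 0.001 without both deep libraries. The largest of those above 1 CPM was H4C5, from 1.86, 1.94 and 2.09 to 4.55, 5.01 and 4.999 CPM, whose call was lost in all 6 fits that leave out 1 library. Histone genes share near-identical sequence and lack a poly(A) tail when normally processed, so their counts in these libraries are uncertain.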

How the data were processed

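The deposited counts are whole numbers of read pairs per gene. Per the study's methods the authors trimmed and deduplicated the reads, aligned them to hg38 with STAR, kept uniquely mapped pairs under a cap on intron length, and counted pairs over exons with featureCounts without a strand option. Per the labels the build was GRCh38.p14. The annotation release was not given in the sources used here. Unique mapping lowers the counts of near-identical genes, such as histone and globin genes. Removal of duplicates without molecular identifiers can lower abundant transcripts, and antisense reads count towards the gene they overlap. Of 58243 gene IDs, 57532 are in GENCODE 44, which gave exon numbers, positions and GC content, and 41836 have a symbol.

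Counts were fitted by robust quasi-likelihood in edgeR 4.0.16 (R 4.3.3; TMM, filterByExpr) over all 27 mRNA libraries with 1 term per group, which left 18095 genes, 18 residual degrees of freedom and a common dispersion of 0.0284. Calls required a log2 fold change beyond 0.6 and an adjusted p (Benjamini-Hochberg, over all tested genes) under 0.05. The 15 nuclear libraries were fitted alike (21929 genes). The fit was tested on simulated data. Replicates differed by more than sampling noise (chi-square per gene from 12.9 to 62.5), so each library counted once. The depth limits genes of low level, since 3 counts correspond to 0.156 CPM in the smallest KCl library. Sample titles give the replicate numbers and call the libraries biological replicates. The deviations of same-numbered 1 h and 3 h libraries correlated at 0.58, 0.678 and 0.652, so the numbers pair them. The reported fit did not use this pairing. With the replicate number as a block over all mRNA libraries 785 genes were called, against 596 as reported.

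Genes named are the 10 largest rises and 10 largest falls among called genes with a symbol, a mean of at least 10 CPM in the higher group and no overlap, and of each gene list the called members with the largest changes (mean of at least 1 CPM), further called members in order of size, and the gene listed first. Members and lists were chosen with earlier results of these data known, so lists are described by counts and medians and carry no test of their own. GC content, the untranslated region and its heptamer, and the GC correction were added after seeing the data. As alternatives, DESeq2 1.42.0 was run, and edgeR with further normalizations, without the filter, with other sets of libraries, a replicate block, thinned counts, no abundant genes, other fold thresholds and leaving out each library.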

Additional observations from a re-analysis of the deposited data

How the results depend on the processing

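The 596 calls (248 higher, 348 lower) stayed within a factor of 1.5 with DESeq2 (575), RLE (590) or upper quartile normalization (553), thinned counts (560), the GC correction (544) or without the 4 genes over 1% of the counts (608). They numbered 990 with no filter on low counts (476 higher), 294 in a fit of only the 6 KCl libraries (154 higher, 140 lower) and 404 in a fit of the KCl and untreated libraries (218 lower). With the replicate block they numbered 785 in all libraries, 591 of them among the 596, and 849 in the 6 KCl libraries (389 higher), and with the block and the GC correction 742. With the numbers of untreated replicates 1 and 2 exchanged in the block over all libraries, an alternative chosen after seeing the data, they numbered 855, 592 of them among the 596. Apart from list counts given with the block in the report, the block over all libraries changed no call of a named gene. Leaving out both deep libraries gave 150 calls (52 higher, 98 lower). Leaving out 1 library gave 364 to 588 calls, 154 to 255 higher and 210 to 344 lower, the lowest without KCl 1 h replicate 2. Without a fold threshold 884 genes were called (547 lower), and beyond a log2 fold change of 1 345 (133 lower). Restricted to genes with a mean of at least 10 CPM, the median nuclear log2 fold change was 0.541 for genes higher and 0.004 for genes lower at 3 h in mRNA. The 51 called genes named by the rule had 1017 values under the alternatives, of which 907 kept direction and call, 110 kept direction but lost the call and 0 reversed, while 9 values of named genes that were not called passed under an alternative. Without both deep libraries 24 of the 51 were called. The cause of these shifts was not tested, except that smaller fits hold fewer libraries.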

Other observations

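Some genes outside the naming rule, chosen after their values were seen, rose from near 0. ARC, an activity-regulated gene known from neurons, stood at 0.0518, 0.0335 and 0.116 CPM at 1 h and 10.1, 2.22 and 11.2 CPM at 3 h (log2 fold change 6.76, SE 0.60, adjusted p = 4.47e-07). CACNG3, which encodes a regulatory subunit of calcium channels and AMPA receptors, stood at 0.0518, 0.0837 and 0.233 and 6.17, 5.29 and 5.79 CPM (log2 fold change 5.39, SE 0.67, adjusted p = 0.000299), with 0 counts in every untreated library. Among better expressed genes outside the rule, the transcription factor gene SNAI1 went from 41.6, 30.6 and 61.3 to 163, 87.3 and 146 CPM (log2 fold change 1.57), NXF1, the mRNA export receptor, from 114, 125 and 151 to 276, 252 and 308 CPM (1.10), BRD2, a bromodomain protein, from 672, 707 and 827 to 1356, 1211 and 1542 CPM (0.90), and MSMO1, a further enzyme of sterol synthesis, from 113, 83.2 and 77.6 to 219.5, 209 and 375 CPM (1.55). All 4 were called, and the MSMO1 call was lost in 3 of the 6 fits that leave out 1 library.

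Genes of the ATF4 list moved in opposite directions in the replicate pairs, with a median log2 difference of 3 h minus 1 h of -0.559 in pair 1, 0.229 in pair 2 and 0.511 in pair 3. DDIT4, an inhibitor of mTORC1 signalling, was at 196, 3.53 and 8.05 CPM at 1 h, at 40.3, 9.68 and 18.8 CPM at 3 h and at 3.75, 223 and 5.57 CPM in untreated replicates 1 to 3. PHGDH, the first enzyme of serine synthesis, was at 24.1, 11.6 and 145 CPM at 1 h, 20.7, 17.4 and 188 CPM at 3 h and 14.2, 28.9 and 131 CPM untreated. Both were chosen after their values were seen. Replicate 3 was highest in PHGDH in all 3 groups, whereas the high DDIT4 values fell in KCl 1 h replicate 1 and, by the labels, untreated replicate 2, whose number is uncertain as described above.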
